A study of Mus musculus with 20 samples.

Results

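The genes described here encode the aminoacyl-tRNA synthetases, the enzymes that join each amino acid to its transfer RNA, in the cytosol and in mitochondria. They were chosen by symbol, with earlier results of these data known. In all 36 genes were sought among the 19505 genes with a symbol on the array, and 34 were found, each with 1 probe set. They are 18 of 20 cytosolic and 16 of 16 mitochondrial synthetases; Aars and Dars were not analysed here. The study measured liver RNA of 20 mice on 1 Affymetrix array per mouse, to follow how fasting acts on liver transcripts when Mcl1, the gene of an anti-apoptotic BCL2 family protein, is present or deleted. There were 5 mice in each of 4 groups, labelled as biological replicates. Fed WT and fed Mcl1(L-/-) mice ate freely. Fasted WT and fasted Mcl1(L-/-) mice were caged singly on wire bottoms with no food for 48 h, and all mice had water. If fed mice were caged otherwise, an effect of the caging cannot be told apart from one of fasting. Mcl1(L-/-), written Mcl1KO from here on, stands for floxed Mcl1(F/F) mice given AAV-LP1-Cre, an adeno-associated virus that carries Cre recombinase under LP1, a liver promoter. The sources used here do not say what the WT mice received, or the strain, age and sex of the animals. A response to the virus or to Cre therefore cannot be told apart from a response to loss of Mcl1.

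Most synthetases recognise a single amino acid and its tRNAs, and the charged tRNAs feed the ribosome. Nuclear genes encode both sets, and in most cases the cytosolic enzyme and its mitochondrial partner, marked by a final 2 in the symbol, come from different genes. Gars and Kars are exceptions, since each makes both the cytosolic and the mitochondrial enzyme. Both are counted as cytosolic throughout, so their values do not separate the classes. Several cytosolic synthetases are held with scaffold proteins in a multi-synthetase complex. Uncharged tRNA activates the kinase Gcn2, and the transcription factor Atf4 that is then made is known to raise many cytosolic synthetase genes along with genes of amino acid synthesis.

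The deletion was visible on the arrays. The Mcl1 probe set read 7.43 ± 0.15 (SD, n = 5) fed and 7.28 ± 0.09 fasted in WT livers, against 6.09 ± 0.16 fed and 6.14 ± 0.25 fasted in Mcl1KO livers, in log2 units of signal, and every Mcl1KO array lay below every WT array. Of 12 hepatocyte markers 11 were measured, and the log2 of their summed signal was 15.24 to 15.36 on every array. Between genotypes in fasted livers 0 of them were called by limma, also at an unadjusted p under 0.05. Single markers did move with fasting. In WT 2 were called, both higher, or 18.2% beside 6.79% of all probe sets. In Mcl1KO 3 were called higher and 1 lower, or 36.4% beside 14.4%. Array medians lay between 3.35 and 3.47. In a principal component analysis, fasted Mcl1KO replicates 3 and 4 scored 18.3 and 27.0 on the first component, below replicates 1, 2 and 5 at 42.1 to 46.8. Calls of synthetase genes in comparisons that use this group are also given without replicate 3 or 4 where they change. Counts for other gene lists and cell markers are given over all arrays only. The labels name no batch. In whole liver, fewer cells of a type and less RNA per cell cannot be told apart.

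In livers of fasted mice, 4 of the 34 synthetase genes were higher in Mcl1KO than in WT and none was lower. The 4 were the cytosolic Gars, Sars and Tars, which charge glycine, serine and threonine tRNAs, and the mitochondrial Yars2, which charges tyrosine tRNA. The differences were 0.42 to 0.55 on the log2 scale, or 1.34-fold to 1.46-fold. A gene is called, here and below, at an adjusted p under 0.05 by limma with Benjamini-Hochberg adjustment over all 22206 probe sets. The share of the synthetases called was 11.8%, beside 4.99% of all probe sets, and the share called higher among all probe sets was 3.32%. Counts at an unadjusted p under 0.05 are also given below for some lists. Among all 22206 probe sets these were 1429 between genotypes in fed livers, 4065 in fasted livers and 2477 for the interaction.

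Promoter sequence is shown for these 4 genes because they were the ones called in that comparison. Whether they are regulated together was not tested. The 200 bases before the RefSeq gene start on GRCm38.p6 are given in the direction of transcription. Capitals mark matches on either strand to any of 4 motifs: TGATGNAA, the core of the CEBP-ATF response element that Atf4 binds; CACGTG, the E-box; GCGCA and GCGC with any 1 base between, an NRF1 core; and CCGGAAG, an ETS core. Gars lies at chr6:55037801-55038000 on the plus strand, Tars at chr15:11399659-11399858 on the minus strand, Sars at chr3:108445260-108445459 on the minus strand and Yars2 at chr16:16302765-16302964 on the plus strand.
Gars: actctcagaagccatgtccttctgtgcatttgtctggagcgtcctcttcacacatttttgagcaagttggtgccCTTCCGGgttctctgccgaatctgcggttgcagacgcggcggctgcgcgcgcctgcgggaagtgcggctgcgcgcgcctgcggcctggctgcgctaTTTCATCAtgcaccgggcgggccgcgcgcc
Tars: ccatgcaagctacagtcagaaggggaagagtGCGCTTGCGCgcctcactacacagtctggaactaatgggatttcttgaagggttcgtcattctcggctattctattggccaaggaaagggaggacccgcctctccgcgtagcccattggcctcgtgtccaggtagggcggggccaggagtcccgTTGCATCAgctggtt
Sars: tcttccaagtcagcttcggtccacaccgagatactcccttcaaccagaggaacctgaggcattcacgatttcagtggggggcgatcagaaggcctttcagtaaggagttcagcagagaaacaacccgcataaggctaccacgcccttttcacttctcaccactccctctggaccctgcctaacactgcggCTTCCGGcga
Yars2: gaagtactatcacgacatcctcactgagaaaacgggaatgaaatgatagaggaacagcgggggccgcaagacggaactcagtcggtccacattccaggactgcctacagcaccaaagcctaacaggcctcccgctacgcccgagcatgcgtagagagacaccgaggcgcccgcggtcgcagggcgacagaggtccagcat
The Gars stretch holds the ETS core and then, as TTTCATCA, the CEBP-ATF core at position -30 from the start. The Tars stretch holds the NRF1 core and then, as TTGCATCA, the CEBP-ATF core at position -15. Sars holds the ETS core at position -10 and Yars2 holds none of the 4 in this stretch. Over the full window of 250 bases before to 50 after the start, RefSeq entries were matched for 11 cytosolic and 14 mitochondrial members. The CEBP-ATF core was in 4 of the 11 cytosolic windows (Gars, Tars, Yars and Iars), in 0 of the 14 mitochondrial ones and in 3.97% of 32851 promoters. The E-box was in 3, 1 and 7.15%, the NRF1 core in 3, 2 and 4.60%, and the ETS core in 5, 4 and 8.86%, in the same order. A match describes letters and not a bound site, and the capitalised matches do not overlap each other. Neither Yars nor Iars, which carry the CEBP-ATF core just after the start, was called in any of the 5 comparisons over all arrays. For fasting in Mcl1KO, Iars was called without fasted Mcl1KO replicate 3 and Yars without replicate 4, with estimates over all arrays of 0.34 and -0.22.

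Gars, the glycyl-tRNA synthetase gene, read 6.44, 6.91, 6.80, 6.54 and 6.63 in the 5 fed WT livers, and 6.90, 7.31, 7.12, 7.15 and 7.35 in the fasted WT livers. In fed Mcl1KO livers it read 7.05, 6.94, 6.80, 7.02 and 7.16, and in fasted Mcl1KO livers 7.66, 7.76, 7.34, 7.82 and 7.57. The fasted Mcl1KO group stood above both fed groups without overlap, and met the fasted WT group only where its lowest liver, 7.34, fell just under the highest fasted WT liver, 7.35. Gars was called in 3 of the 5 comparisons, more than any other member. Gars was 0.46 higher in fasted Mcl1KO than in fasted WT livers (SE 0.12, 95% interval 0.22 to 0.70, limma adjusted p = 0.0241). That call was lost without fasted Mcl1KO replicate 1, 2 or 4, without fasted WT replicate 1, and in a fit on these 2 groups alone, with an adjusted p of up to 0.0783.

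Sars, the seryl-tRNA synthetase gene, read 6.60, 6.83, 6.85, 6.86 and 6.85 in fed WT and 6.59, 6.65, 6.44, 6.45 and 6.47 in fasted WT livers. It read 6.36, 6.72, 6.99, 6.80 and 6.97 in fed Mcl1KO and 6.81, 7.13, 6.87, 7.38 and 7.13 in fasted Mcl1KO livers. All 5 fasted Mcl1KO livers lay above all 5 fasted WT livers, while the fed groups overlapped. The difference between the fasted groups was 0.55 (SE 0.12, 95% interval 0.30 to 0.80, adjusted p = 0.0112), and it was called in every alternative run, with an adjusted p of 0.00503 to 0.0391. The fasting estimates were -0.28 in WT (adjusted p = 0.216) and 0.30 in Mcl1KO (adjusted p = 0.116), neither of them called. Their difference, the interaction, was 0.58 (SE 0.17, 95% interval 0.22 to 0.93, adjusted p = 0.164).

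Tars, the threonyl-tRNA synthetase gene, read 7.34, 7.42, 7.44, 7.41 and 7.53 in fed WT, 7.21, 7.56, 7.55, 7.19 and 7.51 in fasted WT, and 7.31, 7.64, 7.50, 7.46 and 7.38 in fed Mcl1KO livers. In fasted Mcl1KO livers it read 7.90, 7.66, 7.61, 8.05 and 7.88. These 5 values lay above every fasted WT value and overlapped the fed Mcl1KO group by 1 liver. Tars was 0.42 higher than in fasted WT (SE 0.11, 95% interval 0.20 to 0.64, adjusted p = 0.0247), and the interval in fed livers was centred on 0.03 (adjusted p = 0.991). The fasted call was lost without fasted Mcl1KO replicate 1, 4 or 5, without fasted WT replicate 1 or 4, and in the fit on 2 groups, with an adjusted p of up to 0.104.

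Yars2, the mitochondrial tyrosyl-tRNA synthetase gene, read 5.07, 5.49, 5.08, 5.38 and 4.89 in fed WT and 4.98, 5.07, 5.07, 4.92 and 4.79 in fasted WT livers. It read 4.50, 5.20, 4.58, 5.10 and 4.95 in fed Mcl1KO and 5.44, 5.50, 5.09, 5.79 and 5.51 in fasted Mcl1KO livers. The fasted groups did not overlap, although replicate 3 of fasted Mcl1KO, at 5.09, lay only just above the highest fasted WT liver. Yars2 was 0.50 higher in fasted Mcl1KO than in fasted WT livers (SE 0.15, 95% interval 0.20 to 0.80, adjusted p = 0.0484). This is the weakest of the 4 calls: it was lost in 17 of 27 alternatives, among them quantile normalisation, with an adjusted p of up to 0.117.

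**Figure D1:**
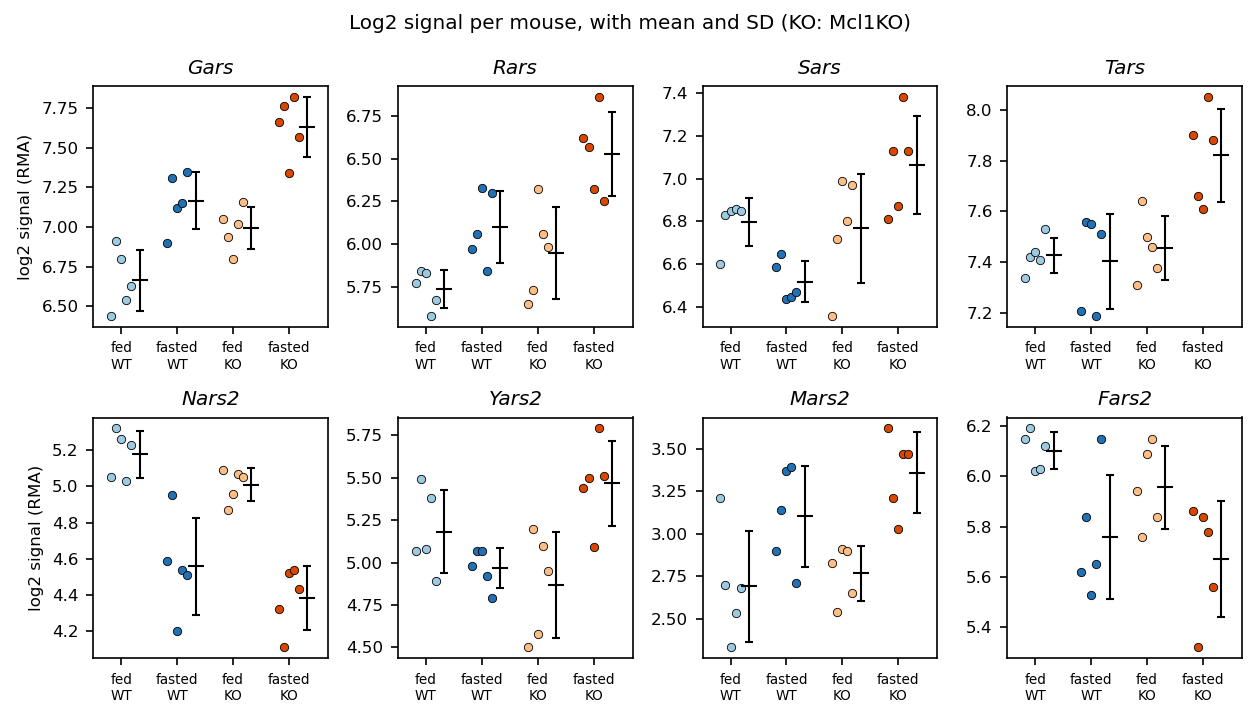
Log2 probe set signal (vertical axis) of 8 synthetase genes in the 4 groups (horizontal axis), with 1 point per mouse and the mean and SD of 5 mice as a bar. Gars is highest in fasted Mcl1KO livers, at 7.34 to 7.82, Sars and Tars separate the fasted groups, and Nars2 is lower in both fasted groups.

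Most cytosolic synthetase genes had estimates a little above 0 between Mcl1KO and WT livers, in which few single genes passed the test. In fasted livers 16 of the 18 cytosolic estimates were above 0 (16 with quantile normalisation and 17 with each array centred on its median), and their median was 0.27, beside -0.02 over all probe sets. Of the 16 mitochondrial estimates 5 were above 0 (6 and 8 under the same rescalings), with a median of -0.05. The difference between the classes was not tested. The exceptions among cytosolic genes were Qars, the glutaminyl enzyme, at -0.01 and Farsa, 1 of the 2 subunits of the phenylalanyl enzyme, at -0.12. Farsb, which encodes the other subunit, was at 0.26 (adjusted p = 0.252).

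Further cytosolic genes had estimates of similar size that did not pass the test. Rars, the arginyl enzyme, was at 0.42 (SE 0.14, adjusted p = 0.0742), and it passed with a filter on dim probe sets and without fasted Mcl1KO replicate 3, with an adjusted p down to 0.044. Vars, the valyl enzyme, was at 0.53 (SE 0.20, adjusted p = 0.124). Eprs, which charges glutamate and proline tRNAs, was at 0.30 (SE 0.11, adjusted p = 0.122), and Kars, the lysyl enzyme, at 0.26 (SE 0.09, adjusted p = 0.095). For Eprs and Kars the fasted groups did not overlap. In all 5 members had groups that did not overlap in this comparison, which are Sars, Tars, Yars2, Eprs and Kars, beside 3.9% of all probe sets. The rest of the mitochondrial class ran from -0.26 for Sars2 (adjusted p = 0.253) and -0.24 for Pars2 (adjusted p = 0.168) to 0.29 for Tars2 (adjusted p = 0.33).

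**Figure D2:**
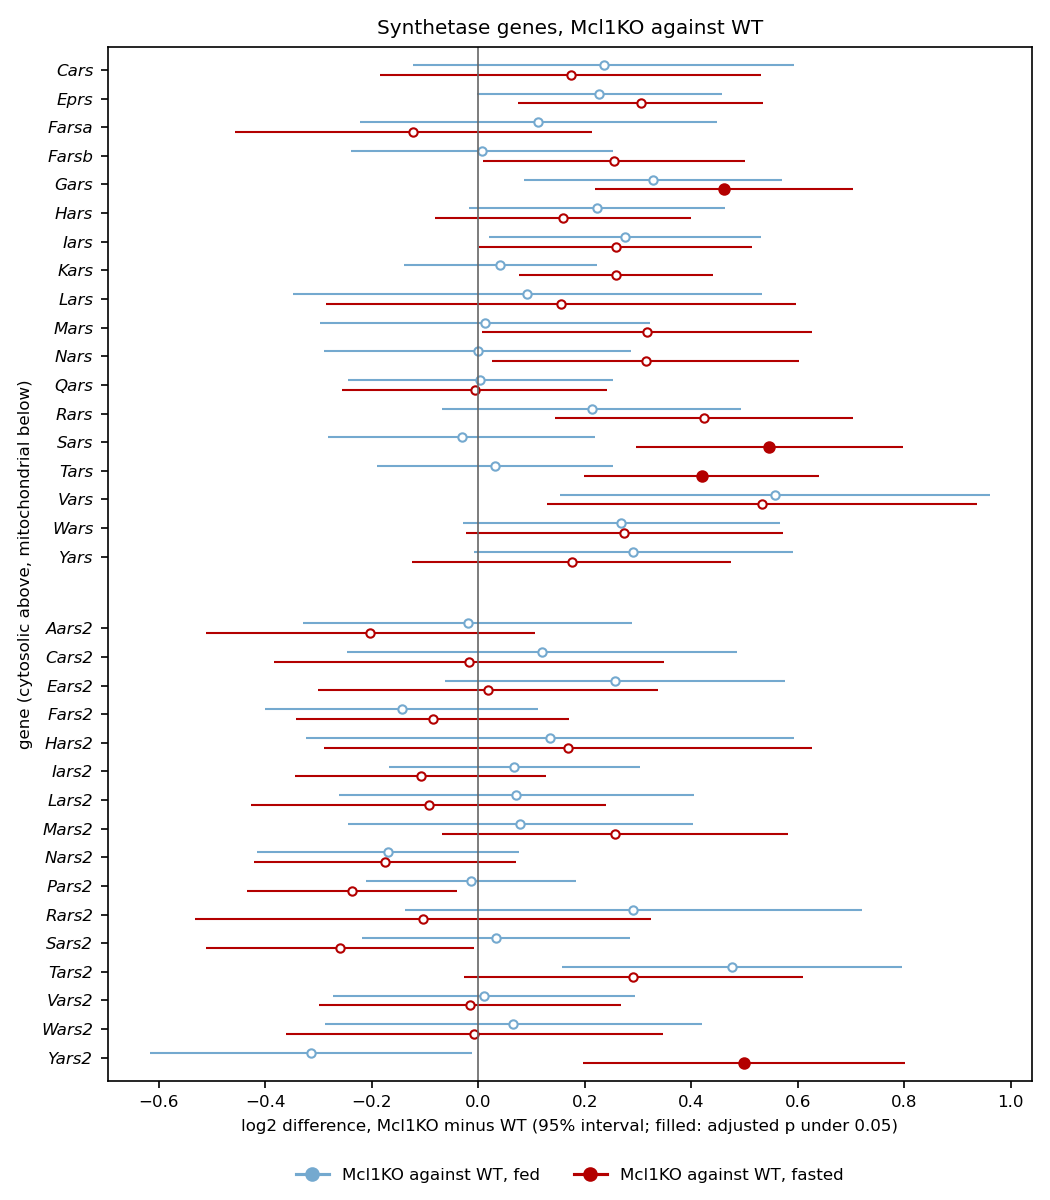
Log2 difference of Mcl1KO minus WT (horizontal axis) with its 95% interval for each of the 34 synthetase genes (vertical axis), in fed and in fasted livers; filled points have an adjusted p under 0.05. The filled points are Gars, Sars, Tars and Yars2 in fasted livers, and most cytosolic points lie right of 0 in both feeding states.

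In fed livers 0 of the 34 genes were called between genotypes by limma, beside 0.036% of all probe sets. At an unadjusted p under 0.05 were 5, beside 1429 of all 22206 probe sets. They were Gars, Iars, Vars and Tars2 with estimates above 0 and Yars2 below. The smallest adjusted p was 0.501, for Tars2, the mitochondrial threonyl enzyme, at 0.48 (SE 0.15). Tars2, Wars2 and Sars lie on the chromosome of the deleted gene, with 2, 72 and 186 protein-coding genes between them and Mcl1. The cytosolic estimates again lay mostly above 0, in 16 of 18 genes (14 with quantile normalisation and 15 with centred arrays), with a median of 0.16 beside 0.00 over all probe sets. Vars had the largest, 0.56 (SE 0.20, adjusted p = 0.565). Of the mitochondrial estimates 11 of 16 were above 0, with a median of 0.07. Yars, the cytosolic tyrosyl enzyme, was the only gene whose fed groups did not overlap, beside 1.57% of all probe sets, at 0.29 (adjusted p = 0.796).

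Fasting WT mice moved few of these genes: Gars rose and Nars2, the mitochondrial asparaginyl enzyme, fell. That is 2 of 34 genes, or 5.88%, beside 6.79% of all probe sets. Gars rose by 0.50 (SE 0.12, 95% interval 0.26 to 0.74, adjusted p = 0.00811), or 1.42-fold, with the groups overlapping by 1 liver on either side. Nars2 read 5.05, 5.32, 5.26, 5.03 and 5.23 in fed WT livers and 4.59, 4.95, 4.20, 4.54 and 4.51 in fasted WT livers, so that every fasted value lay below every fed one. It fell by 0.62 (SE 0.12, 95% interval -0.86 to -0.37, adjusted p = 0.00145). Nars2 was the only member whose groups did not overlap, beside 7.36% of all probe sets. The class medians were -0.03 for cytosolic and -0.09 for mitochondrial genes, beside 0.01 over all probe sets. With 1 array left out they ran from -0.0654 (without fasted WT replicate 5) to 0.0235 (without fasted WT replicate 4) and from -0.0962 to -0.0238 (without fed WT replicate 4), so the cytosolic one had no settled sign.

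In Mcl1KO livers fasting raised Gars, Rars, Tars, Mars2 and Yars2 and lowered Nars2. These are 6 of 34 genes, or 17.6%, beside 14.4% of all probe sets, so the share called was near the background. Gars rose by 0.64 (SE 0.12, 95% interval 0.39 to 0.88, adjusted p = 0.000403), or 1.55-fold. Rars rose by 0.58 (SE 0.14, 95% interval 0.30 to 0.86, adjusted p = 0.00417), or 1.49-fold. It read 5.65, 5.73, 6.32, 6.06 and 5.98 in fed Mcl1KO and 6.62, 6.57, 6.32, 6.86 and 6.25 in fasted Mcl1KO livers, and these groups overlapped. Its WT values were 5.77, 5.84, 5.83, 5.58 and 5.67 in fed and 5.97, 6.06, 6.33, 5.84 and 6.30 in fasted livers. The fasting estimate in WT, 0.36, was not called (adjusted p = 0.127). Tars rose by 0.36 (SE 0.11, 95% interval 0.14 to 0.59, adjusted p = 0.0215), a call lost in 6 of 27 alternatives with an adjusted p of up to 0.0675, among them those without fasted Mcl1KO replicate 1, 4 or 5 or without fed Mcl1KO replicate 1 or 5.

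Among mitochondrial genes, Nars2 read 5.09, 4.87, 4.96, 5.07 and 5.05 in fed and 4.32, 4.11, 4.52, 4.54 and 4.43 in fasted Mcl1KO livers, again without overlap. It fell by 0.62 (SE 0.12, 95% interval -0.87 to -0.38, adjusted p = 0.000562). This was close to its fall in WT, and the interaction was -0.01 (SE 0.17, 95% interval -0.35 to 0.34, adjusted p = 0.995), so a difference between genotypes larger than those bounds lies outside the interval. Yars2 rose by 0.60 (SE 0.15, 95% interval 0.30 to 0.90, adjusted p = 0.00556). Mars2, the mitochondrial methionyl enzyme, rose by 0.59 (SE 0.16, 95% interval 0.27 to 0.92, adjusted p = 0.0105). Mars2 read 2.83, 2.54, 2.91, 2.90 and 2.65 in fed and 3.62, 3.21, 3.03, 3.47 and 3.47 in fasted Mcl1KO livers. Its groups did not overlap, but its mean signal over all arrays, 2.98, was under the 3.41 of the median probe set, where RMA compresses folds. In fasted WT livers Mars2 read 2.90, 3.14, 3.37, 3.39 and 2.71 and in fed WT livers 3.21, 2.70, 2.33, 2.53 and 2.68, and that estimate of 0.41 was not called (adjusted p = 0.136).

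Members whose fed and fasted Mcl1KO groups did not overlap were 3, Gars, Nars2 and Mars2, beside 10.2% of all probe sets. The cytosolic median of the fasting estimates was 0.06, with 12 of 18 above 0 (11 with quantile normalisation and 13 with centred arrays), and the mitochondrial median was -0.21, with 3 of 16 above 0, beside 0.00 over all probe sets. Without fasted Mcl1KO replicate 4 the cytosolic median was 0.0097 with 9 of 18 above 0, so the class had no direction there. The cytosolic genes called were then Gars, Rars and Yars, and without replicate 3 they were Gars, Iars, Rars and Tars; the 3 mitochondrial calls were the same genes in both cases. Fars2, the mitochondrial phenylalanyl enzyme, read 6.15, 6.19, 6.02, 6.03 and 6.12 in fed and 5.62, 5.84, 5.53, 5.65 and 6.15 in fasted WT livers, where replicate 5 alone reached the fed range. In Mcl1KO livers it read 5.94, 5.76, 6.09, 6.15 and 5.84 with food and 5.86, 5.32, 5.84, 5.78 and 5.56 without, with overlap. Fars2 had estimates of -0.34 in WT and -0.28 in Mcl1KO, neither called (adjusted p = 0.113 and 0.149). Cars, the cytosolic cysteinyl enzyme, was at -0.38 and -0.45 (adjusted p = 0.243 and 0.0953), and Iars, the cytosolic isoleucyl enzyme, at 0.36 and 0.34 (adjusted p = 0.0927 and 0.0706). The comparisons of fasting in Mcl1KO and of genotype in fasted livers share the fasted Mcl1KO arrays, so a gene called in both is not 2 independent results.

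**Figure D3:**
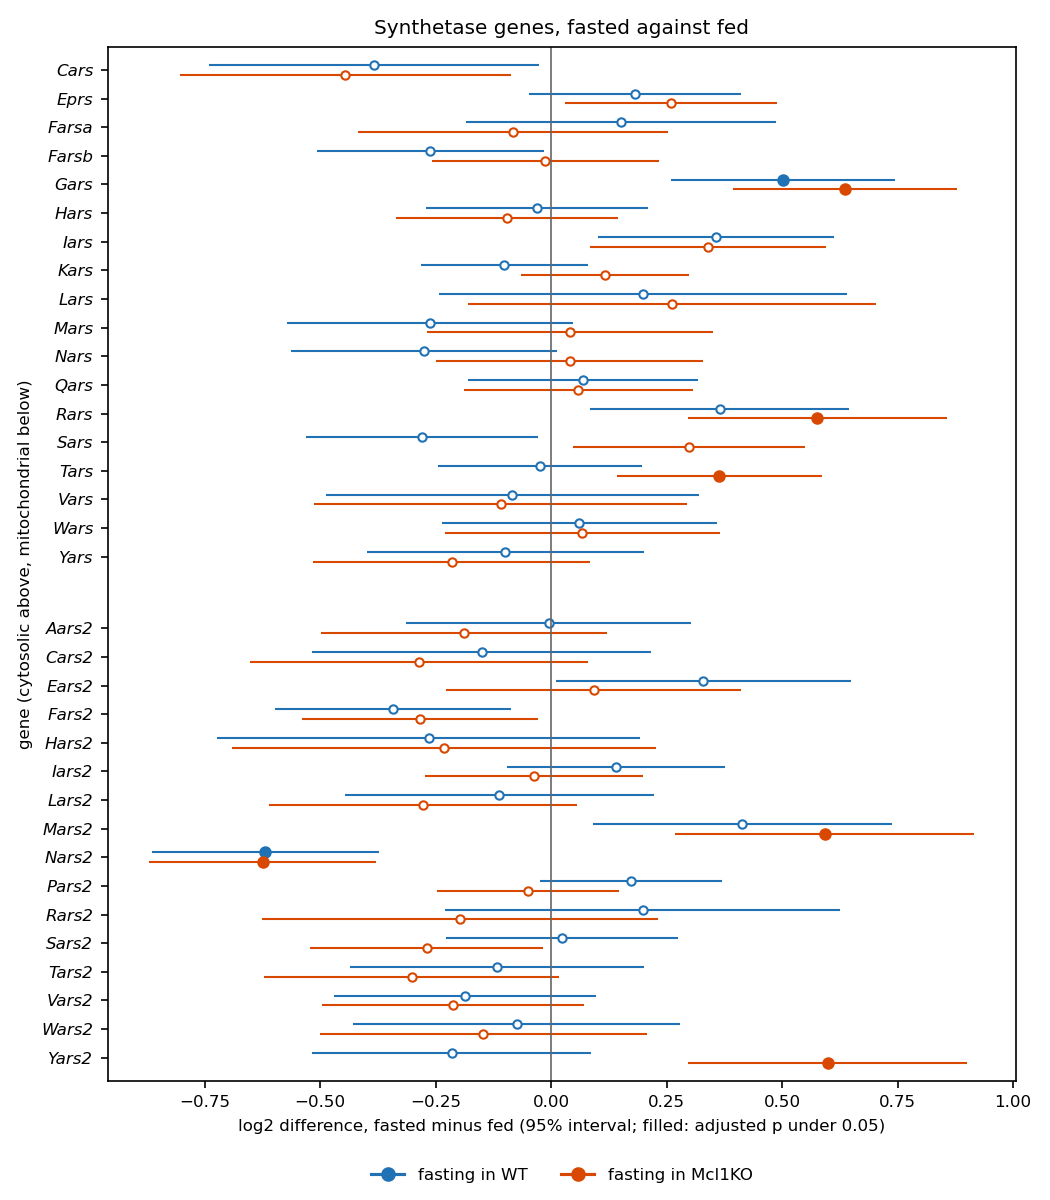
Log2 difference of fasted minus fed (horizontal axis) with its 95% interval for each of the 34 synthetase genes (vertical axis), in WT and in Mcl1KO livers; filled points have an adjusted p under 0.05. Gars lies right of 0 and Nars2 left of 0 in both genotypes, while Rars, Tars, Mars2 and Yars2 are filled in Mcl1KO livers.

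Whether the response to fasting differed between genotypes was tested by the interaction. By limma 0 of the 34 genes passed, beside 0.135% of all probe sets. At an unadjusted p under 0.05 were 3 (Sars, Tars and Yars2), beside 2477 of all 22206 probe sets. The smallest adjusted p was that of Yars2, 0.0979, for an interaction of 0.81 (SE 0.21, 95% interval 0.39 to 1.24). Without fasted Mcl1KO replicate 3, whose Yars2 value was the lowest of its group, the adjusted p was 0.0245. Gars was at 0.13 (SE 0.17, 95% interval -0.21 to 0.48, adjusted p = 0.832), Rars at 0.21 (adjusted p = 0.743), Tars at 0.39 (SE 0.15, adjusted p = 0.304) and Mars2 at 0.18 (adjusted p = 0.834). The genes called for fasting in Mcl1KO alone are therefore not shown to respond differently from WT.

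Class medians per array show how much of this pattern each mouse carried. Each gene was set to its mean over the 20 arrays, and the median over the class was taken on each array. In WT livers the cytosolic median was -0.20, -0.06, 0.01, -0.16 and -0.06 with food and -0.16, 0.00, -0.04, -0.16 and -0.07 after fasting. In Mcl1KO livers it was -0.07, 0.05, -0.01, 0.14 and 0.03 with food and 0.08, 0.09, 0.10, 0.45 and 0.09 after fasting. All 5 fasted Mcl1KO livers lay above all WT livers, and replicate 4 stood far above the other 4. The cytosolic minus mitochondrial difference averaged -0.14 ± 0.11 (SD, n = 5) fed and -0.05 ± 0.07 fasted in WT, and -0.04 ± 0.11 fed and 0.22 ± 0.19 fasted in Mcl1KO livers. In fasted Mcl1KO livers the differences were 0.08, 0.22, 0.04, 0.51 and 0.26, each above the highest fasted WT value of 0.02. The highest fed values were 0.04 in WT and 0.07 in Mcl1KO, so the lowest fasted Mcl1KO liver did not stand above the fed groups. Without replicate 4 of fasted Mcl1KO, 14 of the 18 cytosolic estimates against fasted WT stayed above 0 with a median of 0.22, and Sars alone was called. Without replicate 3, the cytosolic Gars, Rars, Sars and Tars and the mitochondrial Yars2 were called.

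**Figure D4:**
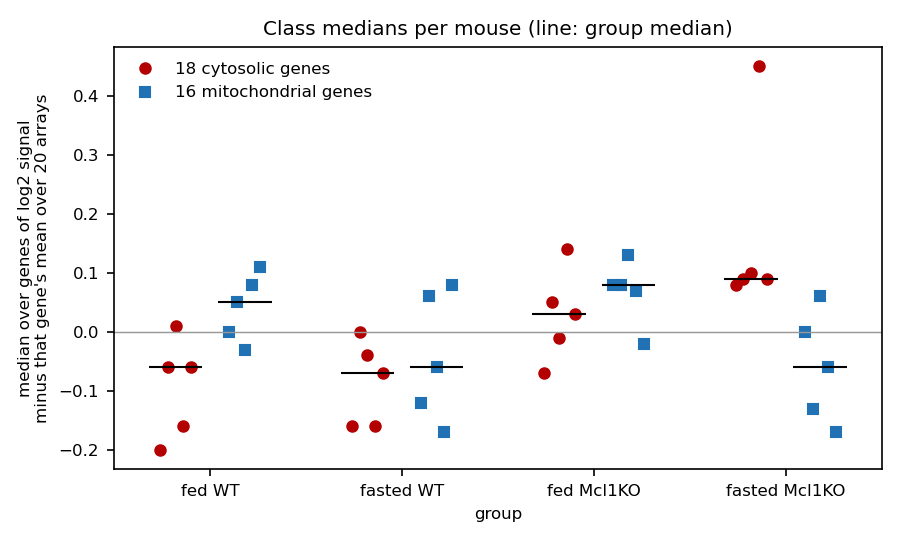
Median over the cytosolic and over the mitochondrial synthetase genes of the log2 signal minus each gene's mean over all arrays (vertical axis), 1 point per mouse, in the 4 groups (horizontal axis). The cytosolic median is 0.08 to 0.45 in fasted Mcl1KO livers, with replicate 4 at the top, and 0.01 or less in all WT livers.

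**Figure D5:**
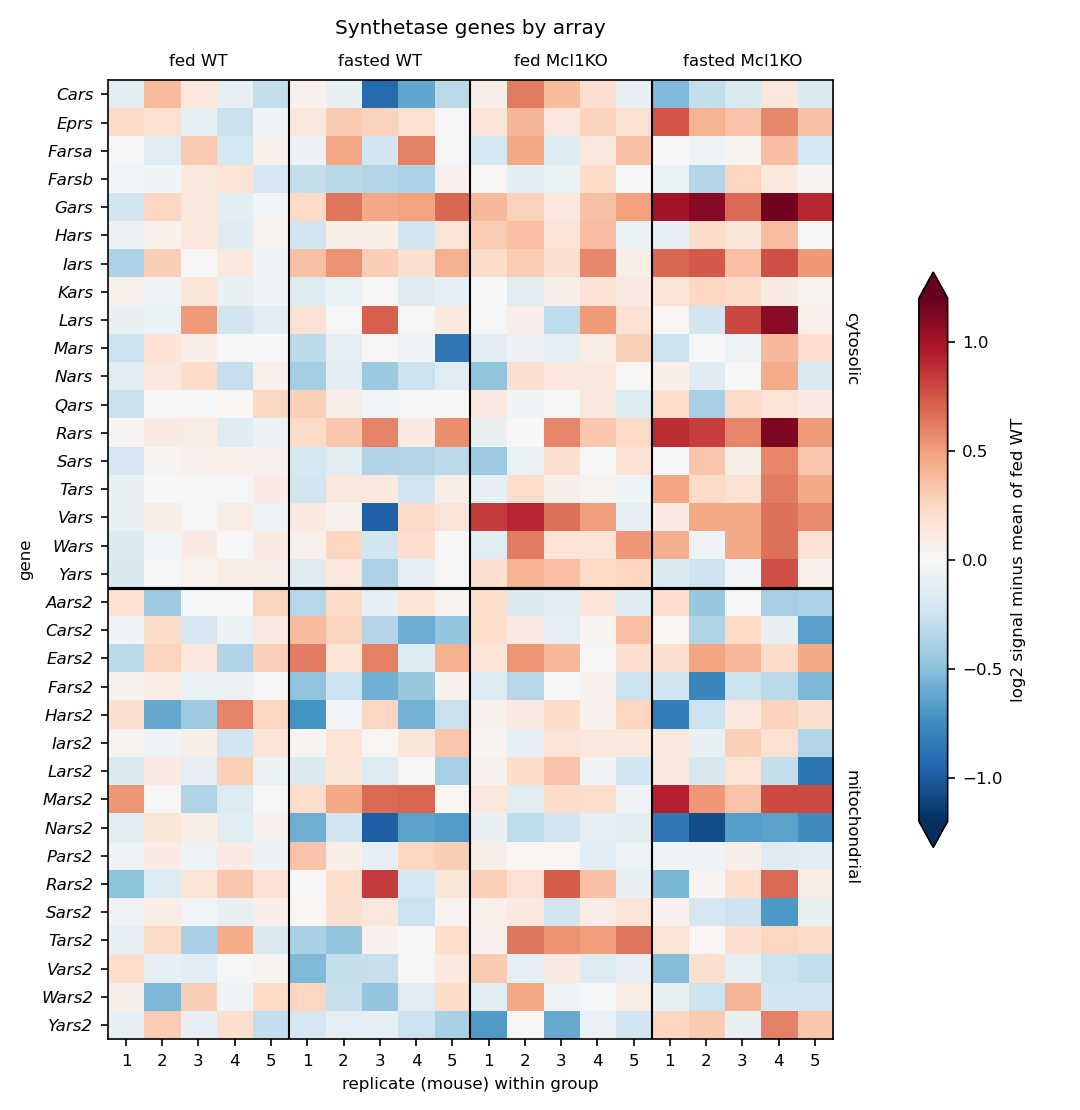
Log2 signal of each of the 34 synthetase genes (rows) on each of the 20 arrays (columns), as the difference from that gene's mean in fed WT livers, on a colour scale. Nars2 is below its fed WT mean in fed Mcl1KO livers and, on average by more, in both fasted groups. Gars, Rars and Yars2 reach their highest values in fasted Mcl1KO livers.

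The members were further compared by what the enzymes share. Of the synthetases in the multi-synthetase complex 7 of 8 were measured. In fasted livers 6 of the 7 had estimates above 0 between genotypes, with a median of 0.26, and 0 were called by limma (5 at an unadjusted p under 0.05), while the 11 measured cytosolic genes outside it had a median of 0.27 and 3 calls, beside 4.99% of all probe sets called. With fasting in Mcl1KO, all 7 complex members had estimates above 0, and Rars was the 1 called, which is 14.3% beside 14.4% of all probe sets. The 18 genes of the class I fold and the 15 of class II had medians of 0.16 and 0.17 between genotypes in fasted livers, with 1 and 3 called, or 5.56% and 20% beside the same 4.99%. Without fasted Mcl1KO replicate 4, Sars, a class II gene outside the complex, was the only synthetase gene called in that comparison. Cytosolic and mitochondrial genes were also paired where their symbols differ only by the final digit. This left out phenylalanine, glutamate and proline, whose cytosolic genes Farsa, Farsb and Eprs have no partner by symbol. Between genotypes in fasted livers, the cytosolic estimate was the higher in 10 of the 12 pairs. The difference in a pair ran from -0.32 for Yars and Yars2 to 0.81 for Sars and Sars2, with a median of 0.27. For tyrosine the mitochondrial gene had the higher estimate, and for serine the cytosolic gene was ahead by the widest margin. The corresponding counts were 9 of 12 for fasting in WT, 9 for fasting in Mcl1KO and 8 between genotypes in fed livers. These pair differences were not tested.

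Genes that work with the synthetases were counted from lists made by function. Among the 3 scaffold proteins of the complex, Aimp1 was the 1 that rose with fasting in Mcl1KO, by 0.68 (SE 0.15, adjusted p = 0.00214). That is 33.3% beside 14.4% of all probe sets. Between genotypes in fasted livers 0 of the 3 were called by limma, also at an unadjusted p. Among 11 of 12 accessory genes measured, Trnt1, which adds the CCA end to tRNAs, was 0.76 higher in fasted Mcl1KO than in fasted WT livers (adjusted p = 0.0342) and rose by 0.83 with fasting in Mcl1KO (SE 0.21, adjusted p = 0.00719). Sephs1 of the same list, a selenophosphate synthetase family gene, rose by 0.39 with fasting in Mcl1KO (adjusted p = 0.0453). The share of this list called was 9.09% between genotypes in fasted livers, beside 4.99% of all probe sets. For fasting in Mcl1KO it was 18.2% beside 14.4%. Of 16 of 18 cytosolic translation factors measured, 4 were higher in fasted Mcl1KO than in fasted WT livers and none lower, which is 25% beside 4.99% of all probe sets. They were Eif2b3 at 0.91 (adjusted p = 0.0216) and Eif2b2 at 0.44, subunits of the factor that recharges eIF2 with GTP, Eif2s2 at 0.40, a subunit of eIF2, and Eif4ebp1 at 0.68 (adjusted p = 0.0203), a repressor of cap-dependent translation. With fasting, Eif2b3 was the 1 of these 16 that rose in WT, by 0.82 (adjusted p = 0.0258), and 9 rose in Mcl1KO with none falling. These are 6.25% beside 6.79% and 56.2% beside 14.4% of all probe sets. By limma 0 of the 16 passed the interaction (5 at an unadjusted p under 0.05), so a difference between genotypes in the response to fasting is not shown for any of them. The largest of the 9 were Eif2b3 by 1.54 (SE 0.22, adjusted p = 2.88e-05) and Eif4ebp1 by 0.88 (SE 0.17, adjusted p = 0.000517). Of 15 of 16 mitochondrial translation factors measured, 0 were called by limma between genotypes in fasted livers, also at an unadjusted p under 0.05. With fasting, the elongation factor Gfm1 was the 1 of these 15 called in WT and rose by 0.56 (adjusted p = 0.000476). That is 6.67% beside 6.79% of all probe sets. In Mcl1KO 4 rose, which were Gfm1 by 0.42, the release factors Mtrf1 by 0.52 and Mtrf1l by 0.65, and the tRNA modification gene Gtpbp3 by 0.55 (adjusted p = 0.0037 to 0.0498). Tsfm, a mitochondrial elongation factor, fell by 0.32 (adjusted p = 0.0417). These 5 calls are 33.3% of the list, beside 14.4% of all probe sets.

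For the Atf4 pathway all 20 listed genes were measured, and 3 were higher in fasted Mcl1KO than in fasted WT livers: Atf4 itself at 0.76 (SE 0.17, adjusted p = 0.0118), Psat1, an enzyme of serine synthesis, at 0.69 (adjusted p = 0.0307), and Slc3a2, the heavy chain of amino acid transporters, at 0.49. With fasting in Mcl1KO 3 rose, which were Sesn2 by 1.09 (adjusted p = 0.00302), Slc3a2 by 0.79 and Atf4 by 0.78 (adjusted p = 0.0021). In WT livers Asns, the asparagine synthetase, was the 1 that rose, by 1.18 (adjusted p = 0.00602). The shares called were 15% beside 4.99% of all probe sets between genotypes, 15% beside 14.4% for fasting in Mcl1KO and 5% beside 6.79% for fasting in WT. The medians of the 20 genes were 0.06, 0.07 and 0.07, with 11, 12 and 12 estimates above 0, so the list as a whole had no common direction, and 0 of the 20 passed the interaction by limma (4 at an unadjusted p under 0.05).

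Markers of other liver cells also moved with the groups. Of 10 Kupffer cell markers 9 were measured, and 3 (Clec4f, Vsig4 and Lyz2) were higher in fasted Mcl1KO than in fasted WT livers. That is 33.3% beside 4.99% of all probe sets. The log2 of the summed signal of the 9 was 8.47 to 9.24 in fasted Mcl1KO and 7.81 to 8.36 in fasted WT livers. It was 8.88 to 9.31 in fed WT and 9.08 to 9.37 in fed Mcl1KO livers. All 9 estimates between genotypes in fasted livers were above 0, with a median of 0.54. Fasting lowered 5 of the 9 in WT, or 55.6% beside 6.79% of all probe sets. In Mcl1KO it lowered 3, or 33.3% beside 14.4%. The interaction was called for 1, or 11.1% beside 0.135%. Of 8 stellate cell markers 1 (Dcn) was higher in fasted Mcl1KO than in fasted WT livers, or 12.5% beside 4.99% of all probe sets. The summed signals were 10.3 to 10.8 against 9.82 to 10.1. However, 3 of the 8 estimates were below 0, and they ran from -0.48 for Lrat to 0.76 for Dcn, with a median of 0.12. Of 8 endothelial markers 0 were called by limma, yet all 8 estimates were above 0 between genotypes in fasted livers, with a median of 0.37 and 4 at an unadjusted p under 0.05. All 8 were below 0 in fed livers (median -0.29, 0 called by limma, 2 at an unadjusted p under 0.05) and all 8 above 0 in the interaction (median 0.58, 0 called, 5 at an unadjusted p). Their log2 summed signal was 8.99 to 9.59 in fasted Mcl1KO against 8.81 to 9.36 in fasted WT livers, and 8.84 to 9.27 in fed Mcl1KO against 9.20 to 9.56 in fed WT livers. The hepatocyte sum was 15.27 to 15.36 against 15.31 to 15.36. Markers of lymphocytes, cholangiocytes and exocrine pancreas gave 0 calls by limma in this comparison (1, 1 and 0 at an unadjusted p under 0.05), although the pancreas sum ran from 5.74 to 7.62 among fasted WT livers. The part of these cells in the synthetase differences was not tested.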

How the data were processed

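Liver RNA of 20 mice, 5 in each of 4 groups taken from the labels, was measured on 1 array each. Signals of 22206 probe sets came as 1 deposited table on a log2 scale, made with RMA (robust multi-array average) and Partek 7.0, as the submitters' processing notes say. No log base is stated there, and base 2 is assumed from the use of RMA and the range of 1.34 to 12.6. RMA as usually run gives the probe values of all arrays 1 distribution before probe sets are summarised, which hides any shift common to most transcripts. The array medians of the deposited probe set values still ran from 3.35 to 3.47. The sources used here do not give its settings or the probe positions. The platform table gave 1 symbol for 19572 probe sets. A gene with several was to be read from its brightest on average, but each of the 34 synthetases had 1.

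Limma 3.58.1 in R 4.3.3 was fitted with 1 mean per group to all 20 arrays (prior df 6.95), for fasted minus fed within genotype, Mcl1KO minus WT within feeding state, and the interaction. Benjamini-Hochberg adjustment ran over all probe sets, with calls at an adjusted p under 0.05. SE and 95% intervals come from this model, with n = 5 mice per group and an equal spread assumed. The number of arrays limits the precision. Levels of different probe sets were not compared. The steps were tested on simulated data. In each simulated comparison, 91 to 109 of the 22206 probe sets were changed at each size tested. The data had 1109 to 3208 called for fasting in either genotype and between genotypes in fasted livers. With so few changed, the adjustment is stricter, so the shares below do not give the recovery in those comparisons. Changes of 0.5 on the log2 scale were recovered in 25.5% to 40.7% of cases between 2 groups, and in 5.66% for the interaction. Changes of 1 were recovered in 90.8% to 93.2% and in 75.5%. Recovery was incomplete, and a gene that was not called is not shown to be unchanged. Alternatives were quantile normalisation, centring, trend and robust eBayes, weights per array, removal of dim probe sets, a replicate block, fits on 2 groups, and leaving out each array.

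The members, gene lists, motifs and tests were chosen with earlier results of these data known. Members given array by array are those called in any comparison, filled up by smallest adjusted p to 4 in a class. For other lists the rule named up to 2 called genes in each direction by size; members and listed genes named beyond this were chosen after their values were seen. Promoters came from RefSeq (GRCm38.p6). Same-numbered replicates did not deviate together, so the numbers were not used as pairs. Python 3.11.15 with matplotlib 3.10.9 drew the figures.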

Additional observations from a re-analysis of the deposited data

Results flagged for a closer look

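In 10 of the 136 combinations of a synthetase gene and a group, 1 of the 5 arrays stood apart from the other 4 by Dixon's ratio (above 0.71); chance flags about 1 group in 20. Among cytosolic genes, Farsb was 4.62 in replicate 5 of fasted WT, while the other 4 read 4.18 to 4.28. Lars was high in replicate 3 of both WT groups, at 5.0 against 4.27 to 4.41 fed and at 5.20 against 4.46 to 4.66 fasted. Vars was 3.15 in fasted WT replicate 3 against 4.17 to 4.35. Nars was 5.74 in fed Mcl1KO replicate 1 against 6.24 to 6.41, Qars was 6.29 in fasted Mcl1KO replicate 2 against 6.80 to 6.92, and Sars was 6.60 in fed WT replicate 1 against 6.83 to 6.86.

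Among mitochondrial genes, Sars2 was 5.44 in fed Mcl1KO replicate 3 against 5.72 to 5.81, Tars2 was 4.45 in fed Mcl1KO replicate 1 against 4.90 to 5.04, and Wars2 was 3.84 in fasted Mcl1KO replicate 3 against 3.17 to 3.34. Of 12 combinations of a class median and a group, 1 stood apart: the cytosolic median of fasted Mcl1KO replicate 4, at 0.45 against 0.08 to 0.10. None of these genes was called in a comparison except Sars, and its call was between the fasted groups.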

How the results depend on the processing

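Of the values for members called in the report, 289 kept their direction and call over the alternatives and 34 kept the direction and lost the call, all of them of Gars, Tars or Yars2. In fasted livers the 1 mitochondrial call between genotypes became 0 with quantile normalisation, with trend and robust eBayes, with array weights and in the fit on the 2 groups alone, where the cytosolic calls went from 3 to 1 and all probe sets called from 1109 to 399. In fed livers the probe sets called were 8, and 15 with trend and robust eBayes and 26 with array weights. For the interaction they were 30, and 55 with array weights and 52 with the filter on dim probe sets.

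Leaving out 1 array gave 1124 to 1580 probe sets called for fasting in WT and 2689 to 3418 in Mcl1KO, 7 to 16 between genotypes in fed livers, and 497 (without fasted Mcl1KO replicate 2) to 1707 (without replicate 3) in fasted livers. For the interaction it gave 9 (without fasted WT replicate 2) to 331 (without fasted Mcl1KO replicate 3). Cytosolic calls were 1 to 2 for fasting in WT, 2 to 4 in Mcl1KO and 1 to 4 between genotypes in fasted livers; mitochondrial calls were 1 to 2 for fasting in WT, 0 to 1 between genotypes in fasted livers and 0 to 1 for the interaction. The mitochondrial median of the interaction ran from -0.213 to -0.0379. Mars2 for fasting in WT was called without fed WT replicate 1 (adjusted p = 0.0287), and Fars2 without fasted WT replicate 5 (adjusted p = 0.0275).

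Estimates near 0 changed sign without being called. The Nars2 interaction was 0.0138 with quantile normalisation and 0.0331 with centred arrays, and -0.0946 to 0.0912 with 1 array left out. Other ranges over left-out arrays that crossed 0, among the class medians and the 8 genes shown array by array, were -0.0654 to 0.0235 for the cytosolic median with fasting in WT, -0.0631 to 0.029 for Tars with fasting in WT, -0.0147 to 0.0682 for Tars, -0.0867 to 0.0698 for Sars and -0.0117 to 0.209 for Mars2 between genotypes in fed livers, and -0.143 to 0.0119 for Fars2 in fasted livers. Where no cause is given above, the cause was not tested.

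Same-numbered arrays correlated at -0.19 to 0.17 in their deviations from the group means, so they share only a number, and 3 of 20 arrays correlated best with their own number. With the replicate block, the cytosolic median between genotypes in fasted livers was 0.27 with 3 calls, the mitochondrial one -0.05 with 1. The choice between several probe sets of a gene could not be varied, since each member had 1.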
